A study of Mus musculus with 18 samples.

Results

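The proteasome subunit genes are the genes whose symbols start with Psm, followed by 1 of the letters a to g and a number. The rule used gene symbols and no measured value, and it found 49 members among the 22180 genes measured. Of these, 47 encode subunits, activators, assembly chaperones or an inhibitor of the proteasome. The remaining 2 share only the name pattern: Psmc3ip encodes a factor of meiotic recombination, and Psme3ip1 a binding partner of the activator subunit Psme3. Psma4, a core subunit, is not among the members, because its probe sets also carry a second gene symbol. Each member was read from its brightest probe set. Psma5, Psmc2 and Psmg2 were the 3 members with more than 1 probe set carrying no second symbol. Psmd1 and Psme2 each have a further probe set that also carries other gene symbols and was not used.

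The 18 microarrays measured total RNA of C57BL/6 mouse embryonic stem cells that were differentiating as embryoid bodies, the suspended aggregates in which these cells leave the pluripotent state. Control and exposed cultures are labelled 24, 48 and 72 h, with 3 arrays in each of the 6 groups, which the labels call biological replicates. Exposed cultures received 0.25 mM thalidomide from day 3, and the treatment protocol gives the vehicle as 0.25% DMSO. The design text instead speaks of unexposed controls, whose source names give hours since embryoid body formation, so the labels do not settle whether the controls received vehicle. The labels name no genetic change, and every group came from cultured cells of 1 mouse strain. A re-analysis tag stands in the titles of the 9 controls and the 3 arrays exposed for 24 h, and is missing from the 6 arrays exposed for 48 or 72 h. At 48 and 72 h the tag and the exposure cannot be told apart.

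The 26S proteasome degrades proteins that carry ubiquitin chains. Its barrel-shaped 20S core has outer rings of alpha subunits, which gate the entrance, and inner rings of beta subunits, of which Psmb5, Psmb6 and Psmb7 hold the proteolytic sites. The 19S cap binds, unfolds and deubiquitinates substrates with a ring of ATPases (Psmc genes) and a set of non-ATPase subunits (Psmd genes), and inflammatory signals replace the catalytic subunits by Psmb8, Psmb9 and Psmb10. Thalidomide occupies cereblon, through which a ubiquitin ligase picks its substrates, and so redirects ubiquitination to other proteins, which the proteasome then degrades.

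Levels are log2 signals normalised across arrays, so 1 unit is a doubling, and a change describes a gene relative to the other transcripts of an array. Levels of different genes come from different probes and were not compared. Changes are log2 differences ± standard error (SE), and a change was called when limma's adjusted p, taken over all 22180 genes, was under 0.05. The labelled cells were checked against marker genes in the controls. From 24 to 72 h, 7 of 10 pluripotency markers fell and 1 rose, and 7 of 8 cardiac markers rose. Of all genes, 14.3% were called lower and 13.1% higher over that interval. Nanog, a transcription factor of the pluripotent state, went from a mean of 9.13 to 4.82. Exposure called 1 pluripotency marker and 1 of 7 primitive streak markers lower at 24 h. The streak markers then changed by -0.50 to -0.13, with a median of -0.34, and the pluripotency median was -0.14. By limma, 5 of the 7 streak and 4 of the 10 pluripotency markers had an unadjusted p under 0.05, against 4710 of all 22180 genes. At 48 h exposure called 1 cardiac and 1 endoderm marker lower, and at 72 h no marker of these lists. Of all genes, 5.43% were called lower at 24 h, 4.23% at 48 h and 0.00902% at 72 h. At 72 h the median change was -0.93 over the 8 cardiac markers and 0.43 over the 8 neural markers, of which 6 had an unadjusted p under 0.05. The part of cell composition in the values below was not tested. In RNA of whole embryoid bodies, fewer cells of a type and less RNA per cell cannot be told apart.

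After 24 h of thalidomide, the called members lay mostly below the control. Of the 49 members, 10 fell and 1 rose, while 6.86% of all genes were called, 5.43% lower and 1.42% higher. The median change of the members was -0.11, and that of all genes was -0.01. In 25 members all 3 exposed arrays lay below all 3 controls, an arrangement found in 15.9% of all genes, and in 1 member they lay above them, against 9.23%. The per-array median of the members, taken against the control mean of the same time, was -0.14, -0.13 and -0.12 in the 3 exposed arrays of 24 h, and between -0.03 and 0.03 in the 9 controls. In this measure every array of this exposed group was below every control. Each control enters the mean it is set against, which narrows the spread of the controls, and the exposed arrays do not enter it.

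The count at 24 h depended on the arrays included. It was 6 without control replicate 1 of 24 h, 7 without control replicate 3 and 4 without exposed replicate 1. Counts of all genes in fits that leave out 1 array are not given here, at this or other times. A fit of only the 6 arrays of 24 h called 0 members and 121 of all genes. After cyclic loess normalisation between arrays, 1 member was called higher and 6 lower, and the share of lower genes among all called genes went from 79.2% to 65.2%.

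At 48 h, 6 members fell and 2 rose, while 6.08% of all genes were called, 4.23% lower and 1.85% higher. The median change was -0.07 for the members and 0.01 for all genes. All 3 exposed arrays lay below all 3 controls in 18 members, against 16.9% of all genes, and above them in 7, against 12.3%. The per-array medians of the members in the exposed arrays were all close to -0.05. At 72 h, 0 members were called by limma, 2 had an unadjusted p under 0.05, and 0.00902% of all genes were called. All 3 exposed arrays were then below the controls in 4 members, against 7.51% of all genes, and above them in 2, against 7.27%. The median change at 72 h was 0.01, and the 3 exposed arrays had per-array medians of 0.04, -0.03 and 0.04, on both sides of the control mean.

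The 48 h count was 5 without control replicate 2 of 48 h and 2 without control replicate 3. It was 3 without exposed replicate 2 and 4 without exposed replicate 3, and 0 (163 of all genes) when only the 6 arrays of 48 h were fitted. It reached 15 among the 43 members at or above the median signal, where 1950 of all 11090 genes were called, with 14.2% of these genes and 12 of the 43 members lower. Loess kept it at 8, with 3 higher and 5 lower, and 60.6% of all called genes were then lower.

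**Figure D1:**
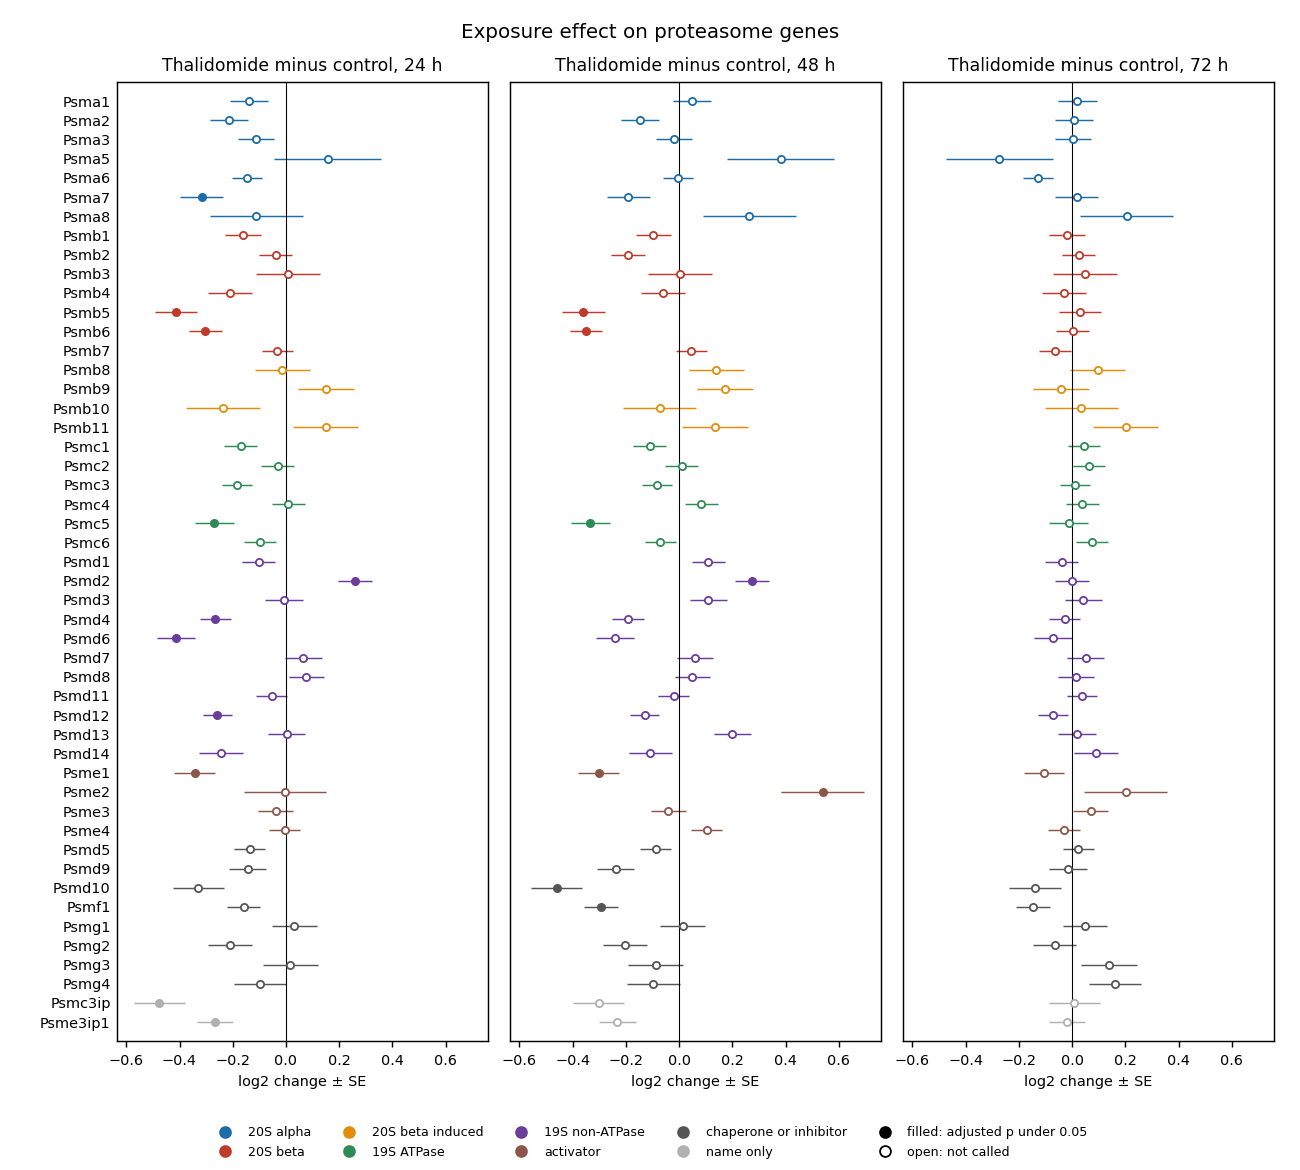
Log2 change (exposed minus control, horizontal axis) of each member at 24, 48 and 72 h of thalidomide, ordered by role in the proteasome; points are limma estimates from 3 arrays per group, bars are SE, and filled points are called. Filled points lie mostly left of 0 at 24 h (10 of 11) and 48 h (6 of 8), and there are none at 72 h.

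Across the 24 and 48 h comparisons, 14 members were called at least once and 35 at neither time. Of all genes, 6.86% were called at 24 h and 6.08% at 48 h. The share of all genes called at either or at both times is not given here, so these counts have no background beside them. Psmb5, Psmb6, Psmc5 and Psme1 fell at both times, and Psmd2 rose at both. The lower calls at 24 h alone were Psma7, Psmd4, Psmd6, Psmd12, Psmc3ip and Psme3ip1, and those at 48 h alone were Psmd10 and Psmf1. Psme2 rose at 48 h alone. These are calls in separate comparisons, and no member's effect was shown to differ between 24 and 48 h, since limma called 0 members and 0% of all genes for that difference, where 2 members had an unadjusted p under 0.05. In the mean of the 3 exposure effects, which averages 9 exposed against 9 control arrays, 14 members were lower and 1 higher, while 9.1% of all genes were lower and 3.93% higher.

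The catalytic subunits of the core were called separately. Psmb5 carries the chymotrypsin-like site, the main target of proteasome inhibitor drugs. Its 24 h controls read 9.31, 9.32 and 9.32, and the exposed arrays 8.84, 8.95 and 8.92. The groups did not overlap, and Psmb5 fell by 0.41 ± 0.08 (adjusted p = 0.00629). At 48 h the controls read 9.17, 9.09 and 9.28 and the exposed arrays 8.77, 8.99 and 8.70. The groups were again apart, and Psmb5 fell by 0.36 ± 0.08 (adjusted p = 0.0163), a call lost without control replicate 3 (adjusted p = 0.0729) or exposed replicate 3 (adjusted p = 0.0711). At 72 h the controls of 9.09, 9.08 and 8.89 and the exposed arrays of 9.09, 9.04 and 9.02 overlapped, and the difference was 0.03 ± 0.08.

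Psmb6 carries the caspase-like site. Its controls read 9.32, 9.42 and 9.36 at 24 h and 9.41, 9.42 and 9.41 at 48 h. The exposed arrays read 9.06, 9.06 and 9.07 at 24 h and 8.99, 9.05 and 9.16 at 48 h. All exposed arrays of both times were below all controls of both times, and Psmb6 fell by 0.30 ± 0.06 (adjusted p = 0.00806) and by 0.35 ± 0.06 (adjusted p = 0.00466). Of 13 alternative analyses of each time, 12 kept each call, and the exception was the fit of only the arrays compared. At 72 h Psmb6 read 9.24, 9.30 and 9.23 in controls and 9.35, 9.23 and 9.20 after exposure, which overlap.

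Psmb7, with the trypsin-like site, was the catalytic subunit that was not called. At 24 h its controls read 9.70, 9.68 and 9.78 and the exposed arrays 9.66, 9.70 and 9.70, a difference of -0.03 ± 0.06 (adjusted p = 0.811). At 48 h controls of 9.71, 9.67 and 9.64 stood against 9.67, 9.68 and 9.81, a difference of 0.05 ± 0.06 (adjusted p = 0.689). The arrays overlapped at both times. At 72 h all exposed arrays were below all controls, by little, and the difference was -0.06 ± 0.06 (adjusted p = 0.834). Whether Psmb7 differed in response from Psmb5 and Psmb6 was not tested.

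**Figure D2:**
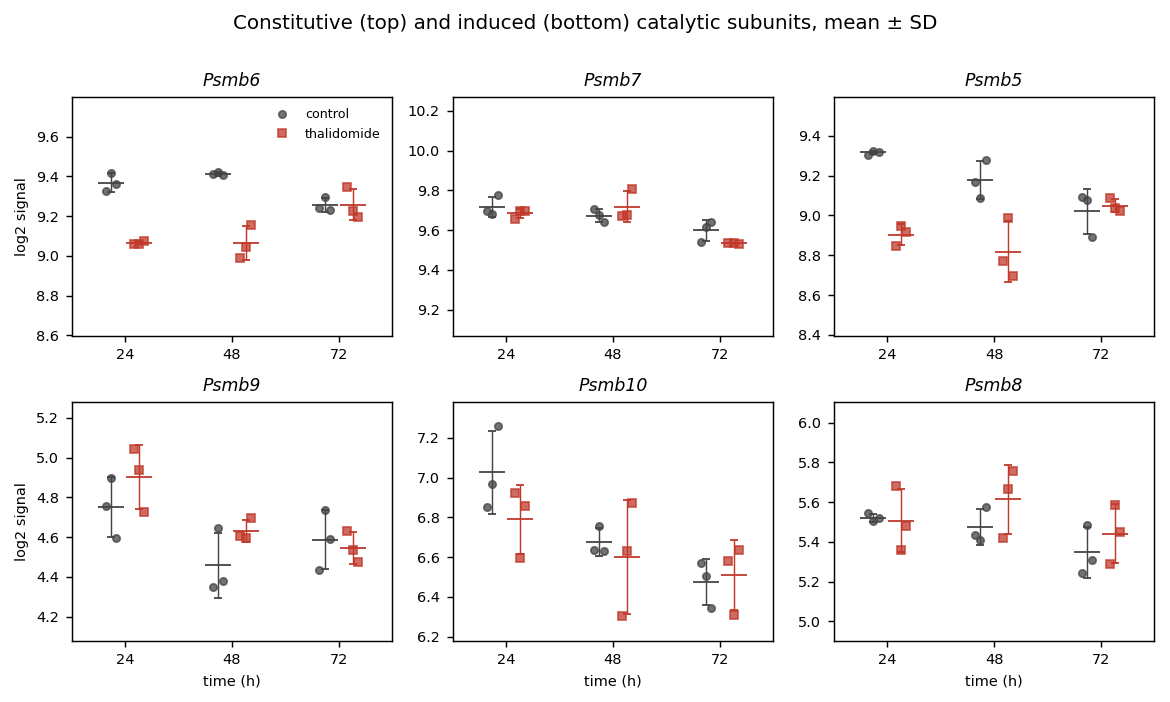
Log2 signal (vertical axis) of the constitutive catalytic subunits Psmb6, Psmb7 and Psmb5 in the upper row and of the induced subunits Psmb9, Psmb10 and Psmb8 below them, by time and group; points are arrays, horizontal marks means and bars SD (n = 3). Exposed arrays of Psmb5 and Psmb6 lie below all controls of the same time at 24 and 48 h. At 72 h their ranges overlap those of the controls, and those of Psmb7 overlap the controls at 24 and 48 h.

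Proteasome genes are known to be induced together through antioxidant response elements when the protease is inhibited, by the transcription factor Nfe2l1 (NRF1), which binds motifs of the form TGANNNNGC. The 250 bases before the RefSeq start site (assembly GRCm38.p6) are given for the 5 members called at both 24 and 48 h, Psmb5, Psmb6, Psmc5 and Psme1, which fell, and Psmd2, which rose. The Psmb5 window is chr14:54617996-54618245 on the minus strand, the Psmb6 window chr11:70525107-70525356 on the plus strand, the Psmc5 window chr11:106255935-106256184 on the plus strand, the Psme1 window chr14:55578244-55578493 on the plus strand, and the Psmd2 window chr16:20651402-20651651 on the plus strand. Sequences run 5′ to 3′ toward the start site, and capitals mark matches to TGANNNNGC found on either strand.
Psmb5 promoter: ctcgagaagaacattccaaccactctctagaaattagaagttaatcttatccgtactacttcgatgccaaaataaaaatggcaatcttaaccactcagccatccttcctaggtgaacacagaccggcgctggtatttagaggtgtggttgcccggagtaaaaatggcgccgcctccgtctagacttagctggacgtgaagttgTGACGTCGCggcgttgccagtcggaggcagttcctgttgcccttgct
Psmb6 promoter: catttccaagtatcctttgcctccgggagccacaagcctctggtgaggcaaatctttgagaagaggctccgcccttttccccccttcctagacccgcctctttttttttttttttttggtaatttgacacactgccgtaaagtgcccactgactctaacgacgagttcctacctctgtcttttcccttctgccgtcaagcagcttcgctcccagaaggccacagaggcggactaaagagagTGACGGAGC
Psmc5 promoter: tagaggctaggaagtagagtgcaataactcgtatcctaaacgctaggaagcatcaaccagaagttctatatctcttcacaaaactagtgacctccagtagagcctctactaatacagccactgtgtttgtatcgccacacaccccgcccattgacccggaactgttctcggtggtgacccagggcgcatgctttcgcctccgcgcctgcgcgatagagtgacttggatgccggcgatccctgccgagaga
Psme1 promoter: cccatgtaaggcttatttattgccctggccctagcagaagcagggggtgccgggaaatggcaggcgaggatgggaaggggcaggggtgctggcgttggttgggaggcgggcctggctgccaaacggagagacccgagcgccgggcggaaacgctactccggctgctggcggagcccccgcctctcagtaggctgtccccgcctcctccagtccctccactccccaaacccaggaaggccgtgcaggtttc
Psmd2 promoter: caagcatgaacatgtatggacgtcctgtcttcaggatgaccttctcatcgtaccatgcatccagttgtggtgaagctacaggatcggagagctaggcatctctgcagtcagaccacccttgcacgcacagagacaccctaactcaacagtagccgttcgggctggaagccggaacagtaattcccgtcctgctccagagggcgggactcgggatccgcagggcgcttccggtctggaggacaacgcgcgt

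In Psmb5 the match TGACGTCGC ended 39 bases before the start site, and in Psmb6 TGACGGAGC ended at the last base before it. The windows of Psmc5 and Psme1, which also fell, and of Psmd2, which rose, hold no match to these letters. Whether a match goes with the direction of a call was not tested. RefSeq promoters were matched for 41 of the 49 members, with 45 windows among 32851 for all genes. TGANNNNGC, searched on both strands, was found in 40.0% of the member windows and 35.2% of all windows of this length. The longer form TGACTCAGC, which is 1 of the sequences that TGANNNNGC covers, was in 0 member windows and 0.39% of all. CCAAT, a frequent promoter motif that does not share its letters, was in 35.6% of member windows and 33.8% of all. By gene, TGANNNNGC was present in 5 of the 12 matched members that were lower at 24 or 48 h and in 12 of the other 29. CCAAT was present in 5 of those 12 and in 11 of the other 29. These are matches of letters in a short window and describe no binding.

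The alpha subunits and the other constitutive beta subunits gave 1 call. Psma7, an alpha subunit, fell at 24 h by 0.32 (adjusted p = 0.0261). Its controls read 9.89, 9.81 and 9.86 and its exposed arrays 9.32, 9.58 and 9.72, so the exposed arrays spread widely below a narrow control group. In 8 of 13 alternative analyses the call held. The median change over the 7 alpha genes was -0.14 at 24 h, and over the 7 constitutive beta genes -0.16. At 48 h limma called 0 of the 7 alpha genes, 1 of which had an unadjusted p under 0.05. The beta genes called lower were again Psmb5 and Psmb6, with a beta median of -0.10. Psma5 and Psma8 had mean signals of 4.48 and 4.26, below the median of all genes, and their presence was not assessed. The dimmer probe set of Psma5 gave 0.14 at 48 h and 0.04 at 72 h, against 0.38 and -0.27 in the brighter one.

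Of the 4 induced catalytic subunits, limma called 0 at each exposure time, and 0 had an unadjusted p under 0.05. Psmb8 takes the place of Psmb5, Psmb9 that of Psmb6 and Psmb10 that of Psmb7 in immunoproteasomes, and Psmb11 is known from the thymus. Psmb8 read 5.54, 5.50 and 5.52 in the 24 h controls against 5.68, 5.36 and 5.48, and 5.44, 5.41 and 5.58 at 48 h against 5.42, 5.66 and 5.76. Psmb9 read 4.76, 4.90 and 4.60 against 5.04, 4.94 and 4.72 at 24 h, and 4.35, 4.64 and 4.38 against 4.60, 4.59 and 4.70 at 48 h. Psmb10 read 6.85, 6.97 and 7.26 against 6.92, 6.59 and 6.86 at 24 h, and 6.64, 6.76 and 6.63 against 6.30, 6.63 and 6.87 at 48 h. In each of these pairs exposed arrays overlapped the controls. At 72 h Psmb8 differed by 0.10 ± 0.10 (adjusted p = 0.875), Psmb9 by -0.04 ± 0.11 (adjusted p = 0.956) and Psmb10 by 0.03 ± 0.14 (adjusted p = 0.976). The median over the 4 induced genes was 0.07 at 24 h and 0.14 at 48 h. Psmb8, Psmb9 and Psmb11 had mean signals below the median of all genes, and no detection values were used, so their presence was not assessed.

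Leukocytes, which express the induced subunits, were followed by 11 measured markers. By limma, 0 of them were called at 24, 48 or 72 h of exposure, and 0 had an unadjusted p under 0.05. Their mean signal per array ran from 4.79 to 4.95 in the 24 h controls and from 4.82 to 4.95 after exposure, from 4.72 to 4.77 against 4.77 to 4.88 at 48 h, and from 4.59 to 4.75 against 4.69 to 4.78 at 72 h. Ptprc, the pan-leukocyte surface protein CD45, had group means between 2.88 and 3.06. The ranges overlapped at 24 and 72 h, and at 48 h they met at 4.77.

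In the 19S cap, 4 non-ATPase subunits and 1 ATPase were called at 24 h. Psmd6, a structural subunit of the lid, gave the smallest adjusted p of all members at 24 h. Its 24 h controls read 8.81, 8.65 and 8.66 and the exposed arrays 8.26, 8.36 and 8.26. The groups were apart, and Psmd6 fell by 0.41 ± 0.07 (adjusted p = 0.00322). At 48 h it read 8.55, 8.44 and 8.47 against 8.34, 8.16 and 8.23, again without overlap, with a difference of -0.24 that missed the threshold (adjusted p = 0.0562). At 72 h the difference was -0.07 ± 0.07 (adjusted p = 0.851).

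Psmd4, a ubiquitin receptor of the cap, read 8.61, 8.60 and 8.57 in the 24 h controls and 8.29, 8.42 and 8.28 after exposure. It fell by 0.27 (adjusted p = 0.0131). Psmd12, another lid subunit, read 10.33, 10.32 and 10.37 against 10.01, 10.14 and 10.10 and fell by 0.26 (adjusted p = 0.0113). In both, every exposed array was below every control, and the calls held in 9 and 10 of 13 alternative analyses.

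Psmd2 ran the other way. It encodes a scaffold subunit in the base of the cap, which docks ubiquitin-like domains of shuttle factors and of the deubiquitinase Usp14. The 24 h controls read 9.47, 9.53 and 9.58 and the exposed arrays 9.77, 9.77 and 9.82. All exposed arrays were above all controls, and Psmd2 rose by 0.26 ± 0.06 (adjusted p = 0.0222). At 48 h the controls read 9.57, 9.55 and 9.56 and the exposed arrays 9.81, 9.92 and 9.78, and the gene rose by 0.27 ± 0.06 (adjusted p = 0.0201). The 24 h call was lost without control replicate 1 (adjusted p = 0.0926), exposed replicate 1 (adjusted p = 0.0546) or exposed replicate 3 (adjusted p = 0.0646). The 48 h call was lost without any 1 of the 3 controls (adjusted p between 0.0543 and 0.0614) or without exposed replicate 2 (adjusted p = 0.093). At 72 h controls of 9.69, 9.70 and 9.64 and exposed arrays of 9.65, 9.58 and 9.78 overlapped.

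Among the 6 ATPases, which pull substrates into the core, Psmc5 was called. Its controls read 8.76, 8.74 and 8.80 at 24 h and 8.67, 8.76 and 8.80 at 48 h, and the exposed arrays 8.45, 8.50 and 8.53 and then 8.34, 8.33 and 8.57. Exposed arrays of both times were below all controls of both times. Psmc5 fell by 0.27 (adjusted p = 0.036) at 24 h and by 0.33 ± 0.07 (adjusted p = 0.0151) at 48 h. The 24 h call was lost when any 1 of the 6 arrays of that time was left out (adjusted p between 0.0563 and 0.126), with the replicate number as a block (adjusted p = 0.0525) and after loess (adjusted p = 0.135). The 48 h call was lost without control replicate 3 (adjusted p = 0.0639) or exposed replicate 2 (adjusted p = 0.0712). The median over the ATPase genes was -0.13 at 24 h and -0.08 at 48 h. Psmc2 was read from its brighter probe set, with changes of -0.03 at 24 h and 0.01 at 48 h. Its dimmer probe set gave -0.28 and -0.18, so the value of Psmc2 depended on the probe set.

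**Figure D3:**
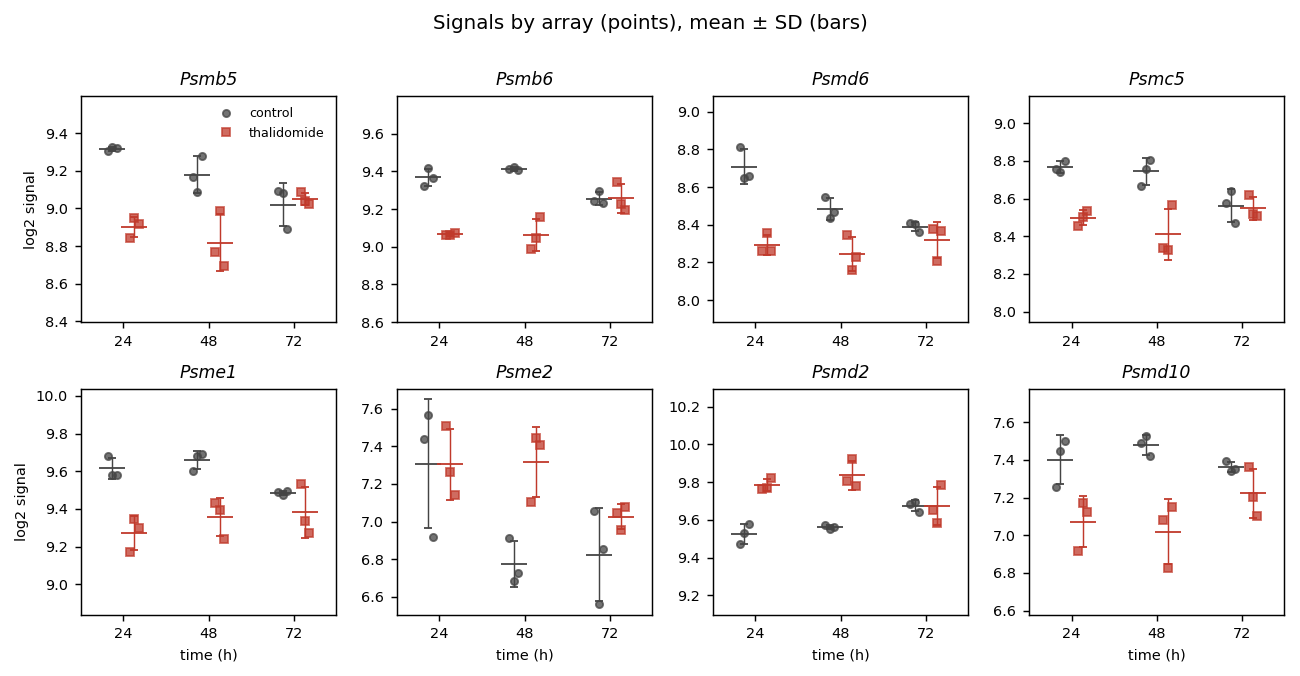
Log2 signal (vertical axis) of 8 members, Psmb5, Psmb6, Psmd6, Psmc5, Psme1, Psme2, Psmd2 and Psmd10, by time and group; points are arrays, horizontal marks means and bars SD (n = 3). Exposed arrays lie below the controls at 24 h in 6 panels and above them in that of Psmd2, Psme2 stands above its controls at 48 h, and groups lie closer at 72 h.

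The subunits of the activator PA28, which opens the core without the help of ubiquitin, were called in opposite directions. Psme1 encodes its alpha subunit. The 24 h controls read 9.68, 9.58 and 9.58 and the exposed arrays 9.17, 9.35 and 9.30, and Psme1 fell by 0.34 ± 0.08 (adjusted p = 0.0132). At 48 h it read 9.60, 9.68 and 9.69 against 9.43, 9.40 and 9.24 and fell by 0.30 ± 0.08 (adjusted p = 0.0287). The groups were apart at both times. The 24 h call was lost without control replicate 1 (adjusted p = 0.0622) or exposed replicate 1 (adjusted p = 0.0648), and the 48 h call without any 1 control or without exposed replicate 2 or 3 (adjusted p between 0.0529 and 0.113). At 72 h controls of 9.49, 9.47 and 9.50 met exposed arrays of 9.53, 9.34 and 9.27, which overlap.

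Psme2 encodes the beta subunit, with which Psme1 forms a ring. Its 48 h controls read 6.91, 6.69 and 6.73 and the exposed arrays 7.10, 7.44 and 7.40. The groups were apart, and Psme2 rose by 0.54 ± 0.16 (adjusted p = 0.0497), just inside the threshold. That call was lost without any 1 of the 3 controls or without exposed replicate 2 or 3 (adjusted p between 0.074 and 0.163), and with the replicate number as a block (adjusted p = 0.0573). At 24 h controls of 7.44, 7.56 and 6.92 and exposed arrays of 7.51, 7.26 and 7.14 overlapped, and at 72 h controls of 7.05, 6.56 and 6.86 lay beside 7.04, 6.95 and 7.08. In the controls Psme2 fell from 24 to 48 h by 0.53 (adjusted p = 0.0306), so the exposed mean of 48 h, 7.32 ± 0.19 (SD, n = 3), stood near the 24 h control mean of 7.31 ± 0.34 (SD, n = 3). A further probe set of Psme2, shared with other symbols, had 48 h means of 6.93 in controls and 6.98 after exposure. Its control means were 6.92 at 24 h and 6.87 at 72 h, so the Psme2 changes rest on the probe set used. How far the shared probe set measures Psme2 was not assessed. Psme1 and Psme2 lie on either side of Emc9 on chromosome 14 in the RefSeq order of genes. Psme3 and Psme4, the nuclear activators, were not called at any exposure time.

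Among the 8 chaperones and inhibitors, limma called 0 at 24 h, where 4 had an unadjusted p under 0.05, and 2 at 48 h. Psmd10 (gankyrin) chaperones the base of the cap during assembly. Its 48 h controls read 7.49, 7.52 and 7.42 and the exposed arrays 7.08, 6.83 and 7.15, and it fell by 0.46 ± 0.10 (adjusted p = 0.012), a call lost without exposed replicate 2 (adjusted p = 0.0622). At 24 h controls of 7.25, 7.45 and 7.50 stood against 6.92, 7.17 and 7.13, with a difference of -0.33 at the edge of the threshold (adjusted p = 0.0501). The groups were apart at both times, and the difference between the 2 effects was not called.

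Psmf1 (PI31) binds the core and blocks it in vitro. Its 48 h controls read 8.17, 8.23 and 8.24 and the exposed arrays 7.96, 8.001 and 7.79, and it fell by 0.29 ± 0.06 (adjusted p = 0.0141). The call was lost without control replicate 3 (adjusted p = 0.0544) or exposed replicate 3 (adjusted p = 0.0655), and after loess normalisation (adjusted p = 0.0512). At 72 h Psmf1 and Psma6 had the smallest p-values of the members, with 0 called. Psmf1 then read 8.30, 8.22 and 8.21 against 8.13, 8.04 and 8.12, a difference of -0.15 ± 0.06 (adjusted p = 0.496). Psma6, an alpha subunit, read 8.93, 8.84 and 8.91 against 8.78, 8.73 and 8.78, a difference of -0.13 ± 0.06 (adjusted p = 0.491). In both genes the 72 h groups did not overlap, although neither difference passed the test. The median over the chaperone genes was -0.14 at 24 h and -0.15 at 48 h.

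The 2 members by name alone both fell at 24 h. Psmc3ip read 6.99, 7.09 and 6.96 in controls and 6.56, 6.43 and 6.61 after exposure, and fell by 0.48 ± 0.10 (adjusted p = 0.00806), the largest size among the calls of 24 h. Psme3ip1 read 9.20, 9.21 and 9.31 against 8.88, 9.05 and 8.99, and fell by 0.27 (adjusted p = 0.0269), a call kept in 8 of 13 alternative analyses. Neither encodes a proteasome subunit. Without them the 24 h calls were 8 lower and 1 higher of 47.

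Whether the exposure effect changed by 72 h was tested as a difference of effects, since a call at 24 h and none at 72 h does not show one. Of the groups in the 72 against 24 h difference, only the exposed arrays of 72 h lack the re-analysis tag. Tag and change of effect cannot be told apart there. Between 72 and 24 h limma called 0 members, against 0.496% of all genes (0.383% with a higher effect at 72 h and 0.113% with a lower one), and 15 members had an unadjusted p under 0.05. Between 72 and 48 h it called 0 members, against 0.0947% (0.0631% higher and 0.0316% lower), and 10 had an unadjusted p under 0.05. The member with the lowest adjusted p for 72 against 24 h was Psmb5, whose effect differed by 0.44 ± 0.11 (adjusted p = 0.0801). For 72 against 48 h it was Psmb6, with 0.35 ± 0.09 (adjusted p = 0.0903). When only genes at or above the median signal were tested, the first difference was called for Psmb5 (adjusted p = 0.0241), Psmb6 (0.0327), Psmc3ip (0.0368) and Psmd6 (0.0407), and the second for Psmb6 (0.0238). With a mean-variance trend and robust moderation in limma, the first was called for Psmb5 (0.0154), Psmb6 (0.0229) and Psmd6 (0.0431), and the second for Psmb6 (0.0157) and Psmb5 (0.0394). Whether a smaller effect at 72 h was called thus depended on the fit. Shares of all genes for these differences under the 2 alternative fits are not given here. Both fits called more of all genes at 72 h of exposure. The filter gave 38 of 11090 and the trend with robust moderation 30 of 22180, against 2 of 22180 as reported. The control level of Psmb5 itself went from 9.32 ± 0.01 (SD, n = 3) at 24 h to 9.02 ± 0.11 (SD, n = 3) at 72 h, and the exposed level from 8.90 ± 0.05 (SD, n = 3) to 9.05 ± 0.03 (SD, n = 3).

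In the control course, every member called in the fit over all arrays was lower at the later time. From 24 to 72 h, 15 members fell and 0 rose, while 27.5% of all genes were called, 14.3% lower and 13.1% higher. The median change was -0.15 for the members and -0.04 for all genes, and in 28 members all 72 h controls lay below all 24 h controls, against 23.3% of all genes. The 15 were 5 non-ATPase cap subunits of 11, 2 of 7 alpha, 1 of 7 constitutive beta, 1 of 4 induced, 2 of 6 ATPase, 2 of 4 activator and 2 of 8 chaperone genes. From 24 to 48 h, 3 members fell (Psme2, Psmd11 and Psmd6) and 0 rose, against 6.7% lower and 6.93% higher of all genes. From 48 to 72 h limma called 0 members, against 6.53% of all genes (3.62% higher and 2.9% lower), and 7 members had an unadjusted p under 0.05. The 72 against 24 h count was 7 without control replicate 1 of 24 h, 9 without control replicate 3 of 72 h and 8 when only the 6 arrays were fitted. The pluripotency and cardiac markers moved over the same interval, and their part in the decline was not tested.

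Psmd11, a lid subunit that bridges cap and core, had the smallest adjusted p. It read 10.19, 10.08 and 10.20 at 24 h, 9.96, 9.94 and 10.001 at 48 h, and 9.86, 9.82 and 9.85 at 72 h. The 3 control groups were in descending order without overlap, and Psmd11 fell by 0.31 from 24 to 72 h (adjusted p = 0.000538). Under exposure it was not called, with -0.05 ± 0.06 (adjusted p = 0.655) at 24 h. Psmb10 had the largest decline, from 6.85, 6.97 and 7.26 to 6.57, 6.51 and 6.35, and fell by 0.55 ± 0.14 (adjusted p = 0.00624). Psme2 fell by 0.48 (adjusted p = 0.0279), although its 72 h array of 7.05 was above its 24 h array of 6.92. The Psme2 call was lost without control replicate 1 or 2 of 24 h, or without replicate 2 or 3 of 72 h (adjusted p between 0.059 and 0.142).

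Psmg4, an assembly chaperone of the alpha ring, went from 5.64, 5.72 and 5.86 at 24 h to 5.34, 5.42 and 5.46 at 72 h and fell by 0.33 (adjusted p = 0.0175). That call was lost without control replicate 3 of 24 h (adjusted p = 0.0799) or replicate 1 of 72 h (adjusted p = 0.0639). The mean signal of Psmg4, 5.53, lay below the median of all genes, and its presence was not assessed. Psmd6 fell by 0.32 (adjusted p = 0.00283) and Psmb5 by 0.30 (adjusted p = 0.0101), the latter not without control replicate 3 of 72 h (adjusted p = 0.0622). The remaining calls were Psmd14, the deubiquitinase of the lid, and Psmd12, Psmd13, Psmc2, Psmc5, Psma2, Psma6, Psme3 and Psmg1, with declines of 0.18 to 0.30 and adjusted p between 0.0108 and 0.0465. Psmc5 kept its call in 5 of 13 alternative analyses. It was lost with the replicate block (adjusted p = 0.0603), after loess (adjusted p = 0.0561), and without any 1 of the 24 h controls or without replicate 1 or 3 of 72 h (adjusted p between 0.0762 and 0.181). The Psma6 call was lost without control replicate 1 or 2 of 24 h or replicate 2 of 72 h (adjusted p between 0.061 and 0.101). The other 7 held in 8 to 12 of the 13 alternatives. Psmd2 differed by 0.15 in the other direction and was not called (adjusted p = 0.0987), but rose after loess (adjusted p = 0.0399), with the signal filter (adjusted p = 0.0423) and with trend and robust moderation (adjusted p = 0.0298). Since the 24 h controls enter both this comparison and that of 24 h exposure, their values are shared. At 24 h of exposure Psmb5 stood at 8.90 ± 0.05 (SD, n = 3), and the controls of 72 h at 9.02 ± 0.11 (SD, n = 3). Psmd6 stood at 8.29 ± 0.05 (SD, n = 3), beside 8.39 ± 0.03 (SD, n = 3) in those controls.

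**Figure D4:**
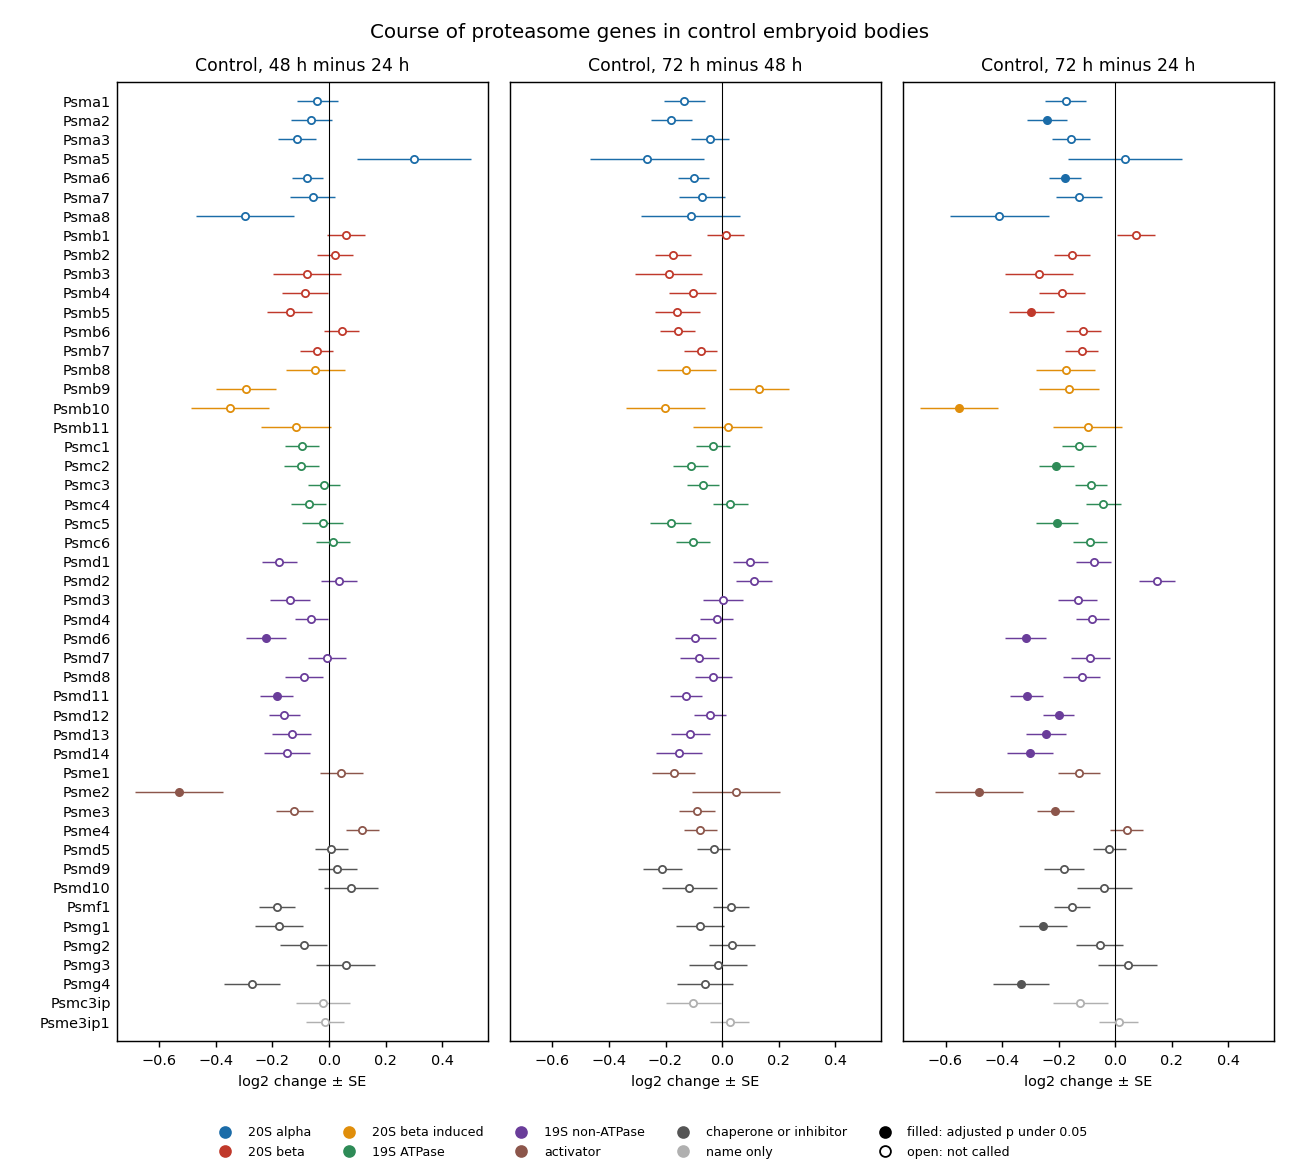
Log2 change (horizontal axis) of each member between control times, ordered by role; points are limma estimates from 3 arrays per group, bars are SE, and filled points are called. From 24 to 72 h all 15 filled points lie left of 0, from 24 to 48 h all 3 do, and from 48 to 72 h there are none.

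The members are bright genes, and bright genes were shifted downward as a class at 24 and 48 h. Of the 49 members, 36 were in the brightest of 4 equal bins of mean signal. In that bin 13.3% of all genes were called lower at 24 h, with a median change of -0.08, beside 9 of the 36 members, or 25.0%, with a median of -0.14. At 48 h the bin had 9.41% lower calls and a median of -0.06, and the members 5 of 36, or 13.9%, and a median of -0.08. For control 72 against 24 h it had 24.6% and -0.02, and the members 12 of 36, or 33.3%, and -0.13. The members' shares were above those of the bin in all 3 comparisons, and the gap between their medians was smallest at 48 h. The part of signal level in the members' changes was not tested further. After loess, which acts on this relation, 6 of 49 members were lower at 24 h against 3.05% of all genes, with a member median of -0.07, and 5 at 48 h against 2.73%, with -0.02.

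**Figure D5:**
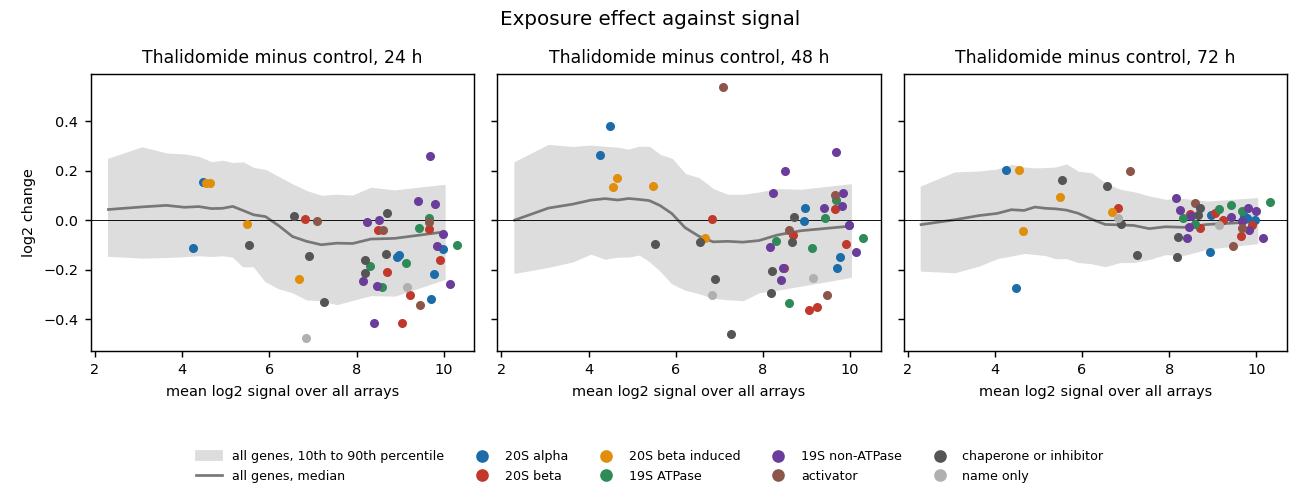
Log2 change (vertical axis) against mean log2 signal over the 18 arrays (horizontal axis) for the 49 members, drawn over the median and the 10th to 90th percentile of all genes in 20 slices of equal size. The median of all genes lies above 0 in dim slices and below 0 in bright ones at 24 and 48 h, and most members lie in the bright slices.

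Of the genes that work with the proteasome, 20 on a list of partners were measured. At 24 h 4 of them fell and 0 rose, against 5.43% and 1.42% of all genes, and their median change was -0.11. Uchl5, a deubiquitinase of the cap, fell by 0.39 (adjusted p = 0.00385). Ufd1, a cofactor of the unfoldase Vcp, fell by 0.35 (adjusted p = 0.0436), Ngly1, the deglycosylase that processes Nfe2l1, by 0.37 (adjusted p = 0.0394), and Akirin2, which carries proteasomes into the nucleus, by 0.21 (adjusted p = 0.0366). Nfe2l1 itself differed by 0.21 without passing the test (adjusted p = 0.0548). At 48 h 2 fell, Uchl5 by 0.31 (adjusted p = 0.0162) and Ufd1 by 0.52 (adjusted p = 0.00709), and 0 rose, with a median of -0.02 and 4.23% of all genes lower. At 72 h 0 of 20 were called, with 0 at an unadjusted p under 0.05. In the controls from 24 to 72 h, 3 fell and 2 rose, while 14.3% of all genes were lower and 13.1% higher.

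Genes of the interferon response and of antigen presentation, to which the induced subunits and PA28 belong by function, did not move in 1 direction. Their calls under exposure were lower, but their median change was -0.02 at 24 h and 0.09 at 48 h. Of 16 measured, 2 fell at 24 h, against 5.43% of all genes, namely Bst2, an interferon-induced membrane protein, by 0.91 (adjusted p = 0.00216), and Usp18, which removes the ubiquitin-like ISG15, by 0.55 (adjusted p = 0.00302). At 48 h Bst2 fell by 0.95 (adjusted p = 0.00239), Usp18 by 0.48 (adjusted p = 0.00766) and B2m, the light chain of class I molecules, by 0.28 (adjusted p = 0.0191), against 4.23% of all genes. A further 4 had an unadjusted p under 0.05 at 48 h, 3 of them with higher values, Ifi35 with 0.33 (adjusted p = 0.0622), Ifit1 with 0.32 (adjusted p = 0.0948) and Nlrc5 with 0.31 (adjusted p = 0.107), and Irf9 with -0.29 (adjusted p = 0.187). At 72 h 0 of 16 were called, with 1 at an unadjusted p under 0.05. In the controls from 24 to 72 h 6 fell and 1 rose, against 14.3% lower and 13.1% higher of all genes. Tap1, a peptide transporter, fell by 0.86 (adjusted p = 7.56e-08). Psmb8 lies between Tap1 and Tap2 and Psmb9 beside Tap1 on chromosome 17 in the RefSeq order. Over the same control interval Psmb8 differed by -0.18 ± 0.10 (adjusted p = 0.237) and Psmb9 by -0.16 ± 0.11 (adjusted p = 0.279), neither called, while Psmb10, on another chromosome, was among the 15 that fell.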

How the data were processed

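Biotin-labelled total RNA of 18 cultures was hybridised to Affymetrix arrays, per the labels' protocols. The submitters' processing notes name RMA and Affymetrix Expression Console 1.3 as the source of the deposited log2 values, of which there is 1 per probe set and array. A genome build was not given in the sources used here. RMA equalises the distributions of arrays, so changes are relative. Of 41345 probe sets, 23521 carried 1 gene symbol in the platform annotation, 1814 carried several and 16010 were unnamed here. The brightest probe set stood for each of 22180 genes. The model, in limma 3.58.1 and R 4.3.3, had 1 mean per group over all 18 arrays (12 residual degrees of freedom), and two-sided p-values were adjusted by Benjamini-Hochberg over all genes of a contrast. No background or detection values were used, and the number of arrays limits the precision.

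The members and gene lists were chosen with earlier results of these data known. All members are covered by counts. Up to 4 called members per direction and comparison with the largest change, the catalytic and induced core subunits, Psme1 and Psme2, and up to 4 called genes per other list were named by rule. Psma7, Psmd4, Psmd12, Psme3ip1, the further control calls, Nfe2l1, Ifi35, Ifit1, Nlrc5, Irf9 and members near the threshold were named after their values were seen. Arrays of 1 group correlated at 0.992 to 0.9959 and none held the values of another. Promoter sequences were taken from RefSeq. The procedure was tested on simulated data. Alternatives were the normalisation, the probe set rule, a signal filter, array weights, the moderation, the arrays fitted, a replicate block and leaving out each array.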

Additional observations from a re-analysis of the deposited data

How the results depend on the processing

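Counts over all genes also changed with the fit, though not always in step with those of the members. After loess at 48 h the member count stayed the same, while the calls over all genes went from 1349 to 999. Lower calls at 24 h made up 5.43% of all genes in the fit as reported, 3.05% after loess, 17.2% with the signal filter, 7.6% with trend and robust moderation and 0.442% with only the arrays compared, and at 48 h 4.23%, 2.73%, 14.2%, 6.44% and 0.568%. For control 72 against 24 h they made up 14.3% as reported and 12.5% with only the arrays compared.

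With 3 arrays per group and no detection values, small changes and dim members are the least certain. At 24 h the count of 11 called members became 7 after cyclic loess between arrays, 17 with a filter at the median signal and 0 when only the arrays compared were fitted, a fit with fewer arrays to estimate the spread. At 48 h the count of 8 became 15 with the signal filter, 15 with a trend and robust moderation, and 0 with only the arrays compared. At 72 h it was 0 in every alternative. For control 48 against 24 h the count of 3 became 6 with the filter, 5 with array weights, 6 with trend and robust moderation and 0 with only the arrays compared, and for control 72 against 48 h the count of 0 became 1 with the filter. For control 72 against 24 h, 15 became 8 with only the arrays compared. For the difference of the exposure effect between 72 and 48 h, 0 became 1 with the filter and 2 with trend and robust moderation, and between 72 and 24 h it became 4 and 3. Shares of all genes under these alternatives are not given here for the shorter control intervals or the differences of exposure effects. There, a shift in member calls cannot be told from a general shift in calls. The cause of the shifts in count was not tested. The mean of the 3 exposure effects gave 13 to 19 calls in these alternatives and 12 to 15 when 1 array was left out.

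Leaving out 1 array in turn gave 4 to 11 calls at 24 h, 2 to 9 at 48 h, 0 to 3 for control 48 against 24 h, 0 to 1 for control 72 against 48 h and 7 to 12 for control 72 against 24 h. At 24 h the lowest count came without exposed replicate 1, and at 48 h without control replicate 3. Counts over all genes in these fits are not given here, so lost member calls cannot be told from a general loss of calls.

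The labels do not state whether replicate numbers pair control and exposed cultures, and the correlations that follow do not settle it. Deviations of same-numbered control and exposed arrays from their group means correlated at -0.0449, -0.0691 and 0.118 at 24 h, 0.0892, 0.00853 and -0.0165 at 48 h, and 0.015, -0.0302 and -0.14 at 72 h. With the replicate number as a block, 10 members were called at 24 h, 7 at 48 h, 0 at 72 h and 14 for control 72 against 24 h.

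Among the members named by rule, changes that took the other sign under an alternative were all uncalled. After loess they were Psmb7 (0.024) and Psme2 (0.060) at 24 h, Psma6 (0.046) at 48 h, and Psmc5 (0.0012) and Psmd2 (0.0028) at 72 h. With array weights they were Psmb10 (-0.0056), Psmb6 (-0.00052) and Psmc3ip (-0.011) at 72 h. Leaving out 1 array gave changes from -0.10 to 0.059 for Psmb8 and from -0.20 to 0.12 for Psme2 at 24 h. At 48 h it gave -0.034 to 0.022 for Psma6, -0.21 to 0.077 for Psmb10 and -0.19 to 0.019 for Psmg4. At 72 h it gave -0.030 to 0.14 for Psmb10, -0.037 to 0.065 for Psmb5, -0.043 to 0.031 for Psmb6, -0.12 to 0.031 for Psmb9, -0.040 to 0.058 for Psmc3ip, -0.059 to 0.026 for Psmc5 and -0.057 to 0.044 for Psmd2. For control 72 against 24 h it gave -0.11 to 0.012 for Psmd10. Uncalled members outside that rule changed sign too, and are not listed in full. Over all alternatives, Psmc2 ran from -0.16 to 0.031 at 24 h, and Psma5 from -0.16 to 0.20 for control 72 against 24 h.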
